A study of Homo sapiens with 4 samples.

Results

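The genes described are 10 protein-coding regulators of the passage from G1 into S phase, matched to the expression table by gene symbol: CDK2, CDK4, CDK6, CCND1, CCND3, CCNE1, CCNE2, CKS1B, E2F1 and RB1. All 10 were found, each on 1 of the 33478 rows of the expression table. RNA of MHCC-97H, a human hepatocellular carcinoma cell line, was sequenced in 4 libraries. By their titles, 2 libraries carried a control short hairpin RNA (SH-NC) and 2 a short hairpin RNA against UCK2 (SH-UCK2-B), with MHCC-97H cells as the shared background. The labels call the groups control and UCK2 knockdown, and UCK2 encodes a uridine-cytidine kinase of pyrimidine salvage. The labels give no promoter, vector, number of hairpins, time or culture for either group. If B stands for 1 hairpin, off-target effects of that hairpin and the loss of UCK2 cannot be told apart. Separate cultures are not stated for the libraries of either group, and p-values then cover only the spread among these libraries, which may be technical.

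Cells decide in G1 whether to copy their DNA. D-type cyclins bind CDK4 and CDK6 and begin to phosphorylate the retinoblastoma protein RB1, which until then holds E2F transcription factors inactive. Released E2F1 switches on genes of DNA synthesis, the E-type cyclins and its own gene. E-type cyclins with CDK2 then complete the phosphorylation of RB1, while CKS1B helps the SCF-SKP2 ubiquitin ligase remove the CDK inhibitor p27. In hepatocellular carcinoma this switch is often altered, through gain of CCND1 or loss of RB1 or of the inhibitor gene CDKN2A.

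The values are TPM, in which read numbers are corrected for gene length and library total, so levels of different genes can be compared. UCK2, the targeted gene, did not separate the groups. Its level was 135.7 TPM in control replicate 1, 93.6 in control replicate 2, 120.5 in UCK2 shRNA replicate 1 and 67.8 in UCK2 shRNA replicate 2 (limma log2 difference -0.31 ± 0.30, SE; adjusted p = 0.640), and that direction turned under quantile normalization (0.059), when libraries were rescaled without the 50 most abundant genes (0.034) and without UCK2 shRNA replicate 2 (0.096). The groups are therefore called the control pair and the UCK2 shRNA pair, and these names rest on the labels alone. In the descriptions, control replicate 2 carries another cell line number than in its title, and UCK2 shRNA replicate 2 carries UCK3. Of 10 hepatocyte or hepatoma markers, 8 were at 1 TPM or more in every library. None of 6 retina markers was, although the extraction protocol mentions retinas. The 4 markers of dividing cells (MKI67, TOP2A, CCNB1, PLK1) summed to 332 and 303 TPM in the control pair, against 266 and 199 TPM in the UCK2 shRNA pair. Sums over all rows were 850379 and 850534 TPM in the controls against 676811 and 643063 TPM. A full column of standard TPM has a fixed total. If the values are of that kind, 15% and 14.9% of it lay outside the deposited rows in the control pair. On the same assumption 32.3% and 35.7% lay outside in the UCK2 shRNA pair, and the reason was not tested. As deposited, 74.7% of the genes tested had a log2 difference below 0. Values after median-ratio scaling, which brings the typical gene to the same level in each library, therefore stand beside the deposited ones below. The markers of dividing cells summed after scaling to 280 and 302 TPM in the control pair, against 289 and 214 TPM in the UCK2 shRNA pair, so UCK2 shRNA replicate 1 lay between the controls. Of these markers, scaled MKI67, CCNB1 and PLK1 were lowest in UCK2 shRNA replicate 2 (16.8, 82.7 and 54.9 TPM). Scaled TOP2A was lowest in control replicate 2 (38.0 TPM, against 58.0 and 59.7 TPM in the UCK2 shRNA pair).

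None of the 10 genes passed the test. On log2(TPM + 1), with limma and Benjamini-Hochberg adjustment over the 14038 genes averaging at least 1 TPM, 0 of 10 had an adjusted p under 0.05, where 0% of all genes were called in either direction. After scaling 0 of 10 were called too, where 0.0641% of all genes were called higher and 0% lower. All 10 were among the genes tested, although RB1 reached the minimum through the controls alone. At an unadjusted p under 0.05, 4 of 10 were lower (CCND1, CCND3, CKS1B and E2F1) and 0 higher, against 14% of all genes lower and 1.38% higher. All 10 had a log2 difference below 0, as had 74.7% of all genes. After scaling that held for 8 of 10, against 50.8% of all genes, for 7 of 10 with quantile normalization, against 54.4%, and for 6 of 10 after rescaling without the 50 most abundant genes, against 35.6%. The median log2 difference of the 10 genes was -0.37 as deposited and -0.13 after scaling, where the medians over all genes tested were -0.22 and -0.01. With quantile normalization these medians were -0.074 for the members and -0.029 for all genes, and after the other rescaling -0.023 and 0.090. With each library left out in turn, the scaled median of the members ran from -0.28 to -0.072. After scaling, 0 of 10 had an unadjusted p under 0.05, against 1.42% of all genes lower and 3.97% higher, and without UCK2 shRNA replicate 2 the scaled count below 0 was 6 of 10, against 50.3% of all genes. In a bulk sample, fewer cells in a phase of the cycle and less RNA per cell cannot be told apart.

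**Figure D1:**
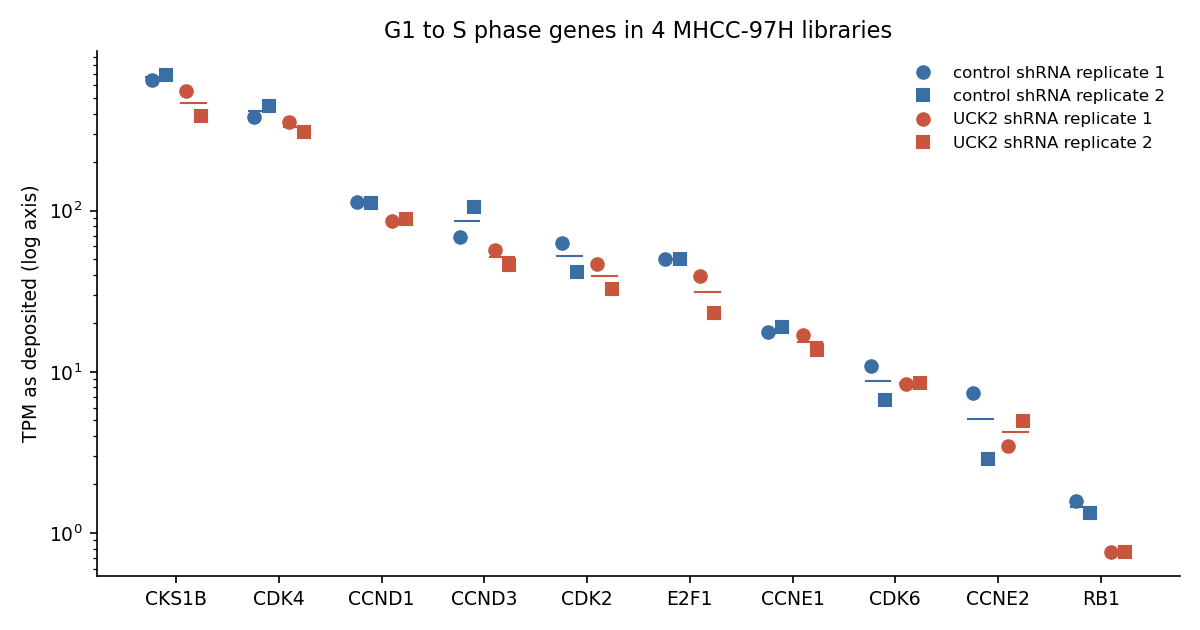
TPM as deposited (log axis) of the 10 genes, in order of their control mean, with 1 point per library and a line at each group mean. The genes span from 698.6 TPM for CKS1B to 0.764 TPM for RB1, and the points of the groups overlap for CDK2, CDK6 and CCNE2.

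The order of the levels was nearly fixed. In the controls it ran from CKS1B (mean 674 TPM) and CDK4 (415 TPM) through CCND1 (113 TPM), CCND3 (86.8 TPM), CDK2 (52.2 TPM), E2F1 (50.4 TPM), CCNE1 (18.3 TPM), CDK6 (8.74 TPM) and CCNE2 (5.12 TPM) to RB1 (1.45 TPM). Of the 9 neighbouring pairs, 8 stood in this order in all 4 libraries. The exception was CDK2 over E2F1, which held in 3 of 4 libraries.

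The D-type cyclins, which couple growth signals to the cycle, were CCND1 and CCND3. CCND1, on chromosome 11 from 69641087 to 69654474, measured 113.8 and 111.5 TPM in the control pair, against 86.8 and 88.7 TPM in the UCK2 shRNA pair. The groups did not overlap, which among the 10 genes held for 7 in this direction and 0 in the other, against 44.4% and 5.46% of all genes. Its log2 difference was -0.36 ± 0.15 (SE, limma adjusted p = 0.324), or -0.12 after scaling, and 0.042 under quantile normalization, so its direction depends on the scaling. CCND3, on chromosome 6 from 41934933 to 42050357, measured 68.9 and 104.6 TPM in the control pair, against 57.1 and 46.3 TPM in the UCK2 shRNA pair. Control replicate 2 stood highest, and the deposited groups did not overlap but the scaled ones did. The log2 difference of CCND3 was -0.71 ± 0.24 (SE, limma adjusted p = 0.294; scaled -0.48, adjusted p = 0.955). Without control replicate 1, CCND3 was the only one of the 10 genes called as deposited (log2 difference -1.01, limma adjusted p = 0.0326), where 0.769% of all genes were called lower. That fit holds 1 control library, the one with the highest CCND3, which is assumed to vary like the UCK2 shRNA pair, and after scaling the call was lost (-0.89, adjusted p = 0.118). Without control replicate 2 the log2 difference of CCND3 was -0.42 as deposited and -0.051 after scaling, and no other leave-out called it. CCND2, the remaining D-type cyclin, named outside the naming rule, measured 0.009 and 0.716 TPM in the control pair, against 0 and 0.007 TPM in the UCK2 shRNA pair. CCND1 accounted for 62.3% and 51.4% of D-type cyclin TPM in the controls and for 60.3% and 65.7% in the UCK2 shRNA pair.

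CDK4 was by far the most abundant kinase partner. The kinase gene lies on chromosome 12 from 57747727 to 57756013 and measured 382.4 and 448.5 TPM in the control pair, against 353.3 and 306.7 TPM in the UCK2 shRNA pair. Its deposited groups did not overlap, and after scaling control replicate 1 was at 322.4 TPM, below both libraries of the UCK2 shRNA pair (384.8 and 330.5 TPM). The log2 difference of CDK4 was -0.33 ± 0.16 (SE, limma adjusted p = 0.372), -0.09 after scaling and 0.084 under quantile normalization, so its direction depends on the scaling as well. CDK6, which can stand in for CDK4, lies on chromosome 7 from 92604921 to 92836594 and measured 10.8 and 6.67 TPM in the control pair, against 8.39 and 8.56 TPM in the UCK2 shRNA pair. Its log2 difference was -0.01 ± 0.28 (SE, limma adjusted p = 0.994), and 0.21 after scaling (95% interval -0.33 to 0.75). CDK4 made up 83.8% to 90.3% of the summed TPM of CDK4, CDK6 and CDK2 in every library, and CDK6 1.34% to 2.46%.

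The E-type cyclins and CDK2 act later in G1. CCNE1, on chromosome 19 from 29811898 to 29824308, measured 17.6 and 18.9 TPM in the control pair, against 16.8 and 13.6 TPM in the UCK2 shRNA pair. The gap between groups was smaller than the spread within the latter, and the log2 difference of CCNE1 was -0.25 ± 0.21 (SE, limma adjusted p = 0.593; scaled -0.03; 0.077 with rescaling without the 50 most abundant genes). CCNE2, on chromosome 8 from 94879770 to 94896678, measured 7.34 and 2.90 TPM in the control pair, against 3.48 and 4.99 TPM in the UCK2 shRNA pair. The controls held both its highest and its lowest value. Its log2 difference was -0.14 ± 0.41 (SE, limma adjusted p = 0.900) and 0.063 after scaling. In GENCODE release 29, 1629 of the 4397 exon bases of CCNE2 also belong to exons of INTS8, an Integrator complex gene on the opposite strand. INTS8 measured 73.6 and 44.1 TPM in the control pair, against 39.2 and 51.5 TPM in the UCK2 shRNA pair, and CCNE2 stood at 6.57 to 9.97 TPM for each 100 TPM of INTS8. The sources used here do not say whether counting used the strand, and the part of INTS8 reads in the CCNE2 value was not tested. CDK2, on chromosome 12 from 55966769 to 55972784, measured 62.9 and 41.4 TPM in the control pair, against 46.7 and 32.5 TPM in the UCK2 shRNA pair. These groups overlapped, with a log2 difference of -0.38 ± 0.27 (SE, limma adjusted p = 0.508; scaled -0.15). The difference of CDK2 was -0.086 without control replicate 1 and -0.68 without control replicate 2, and after scaling it turned to 0.030 in the first of these runs and to 0.12 without UCK2 shRNA replicate 2.

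CKS1B, the small subunit that binds CDKs, was the most abundant of the 10 genes. It lies on chromosome 1 from 154974653 to 154979249 and measured 649.5 and 698.6 TPM in the control pair, against 551.5 and 384.2 TPM in the UCK2 shRNA pair. UCK2 shRNA replicate 2 was the lowest and its partner lay closer to the controls, so that the scaled groups overlapped. The log2 difference of CKS1B was -0.55 ± 0.20 (SE, limma adjusted p = 0.294; scaled -0.31, 95% interval -0.90 to 0.28). Its paralogue CKS2, on the pathway list described below, measured 379 and 322 TPM in the control pair, against 247 and 229 TPM in the UCK2 shRNA pair (limma log2 difference -0.55, adjusted p = 0.294; scaled -0.31, adjusted p = 0.955).

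E2F1 and RB1 are the transcription factor and the brake at the end of this cascade. E2F1, on chromosome 20 from 33675487 to 33686404, measured 50.3 and 50.4 TPM in the control pair, against 39.2 and 23.0 TPM in the UCK2 shRNA pair. The controls were nearly equal and the others differed widely from each other. The log2 difference of E2F1 was -0.72 ± 0.26 (SE, limma adjusted p = 0.294; scaled -0.49, adjusted p = 0.955), and without UCK2 shRNA replicate 2 it was -0.35. After scaling, E2F1 in UCK2 shRNA replicate 1 (42.7 TPM) lay between the controls (42.4 and 50.3 TPM), and replicate 2 was at 24.8 TPM. RB1, on chromosome 13 from 48303751 to 48481986, was the scarcest gene, at 1.58 and 1.32 TPM in the control pair, against 0.767 and 0.764 TPM in the UCK2 shRNA pair. Both pairs agreed closely and did not overlap, with or without scaling. Its log2 difference was -0.47 ± 0.32 (SE, limma adjusted p = 0.500; scaled -0.35, adjusted p = 0.955). The added 1 TPM shrinks differences at this level. With 0.1 TPM added instead, the RB1 difference was -0.84 ± 0.61 (SE, limma adjusted p = 0.528), so the error grew with the estimate. These levels lie near the filter of 1 TPM, and the sequencing depth is unknown. After scaling, groups lay apart with the UCK2 shRNA libraries lower for 15.5% of all genes, and among the 10 genes for CCND1 and RB1. They lay apart with these libraries higher for 16% of all genes and for CDK6 alone of the 10. The gaps were small for CDK6 (9.12 TPM in control replicate 1, 9.14 TPM in UCK2 shRNA replicate 1). The same held for CCND1 (96.0 TPM in control replicate 1, 95.6 TPM in UCK2 shRNA replicate 2). Rescaled without the 50 most abundant genes, 0 of 10 lay apart higher and 2 lower, against 2985 and 1524 of 14038 genes. RB1 held 2.58% to 5.60% of the TPM of the 3 pocket protein genes in each library, with its relatives RBL1 and RBL2, named outside the rule, holding the rest.

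**Figure D2:**
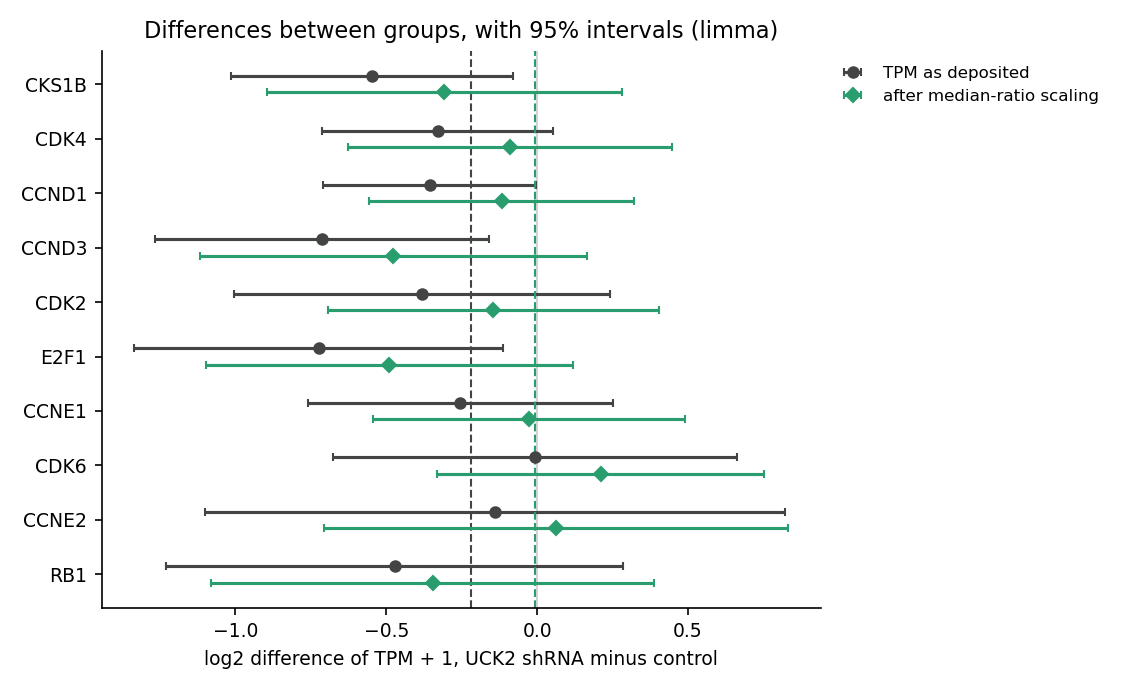
Log2 difference of TPM + 1 (UCK2 shRNA minus control) for each of the 10 genes, with limma 95% intervals, as deposited (circles) and after median-ratio scaling (diamonds); dashed lines mark the medians of all genes tested (-0.22 and -0.01). Every scaled interval includes 0, and the lowest points are E2F1 (-0.72 as deposited, -0.49 scaled) and CCND3 (-0.71 and -0.48).

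Of the 10 genes, 4 kept a negative log2 difference in every alternative run that tested them, namely CCND3, CKS1B, E2F1 and RB1. However, scaled CKS1B was at -0.037 without UCK2 shRNA replicate 2. With a minimum mean of 5 TPM, RB1 was not tested. The share of all genes that kept a negative sign was not computed. CDK2, CDK4, CDK6, CCND1, CCNE1 and CCNE2 turned in at least 1 alternative. After scaling, 6 of the 10 genes were lowest in UCK2 shRNA replicate 2, as were 30.8% of all genes. Control replicate 2 was the highest library for CCND1, CCND3, CCNE1, CDK4, CKS1B and E2F1 and the lowest for CDK6 and CCNE2. The deviations of CCND3 ran widest, from 0.65 in control replicate 2 to -0.39 in UCK2 shRNA replicate 2. Among 7315 protein-coding genes averaging at least 10 TPM, those nearest to CCND3 by Euclidean distance of the 4 scaled deviations were TBL3 (0.07), CRABP2 (0.10) and SZRD1 (0.10). Those nearest to CDK4 were TMEM9 (0.01), HDAC5 (0.02) and WDR5 (0.02).

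**Figure D3:**
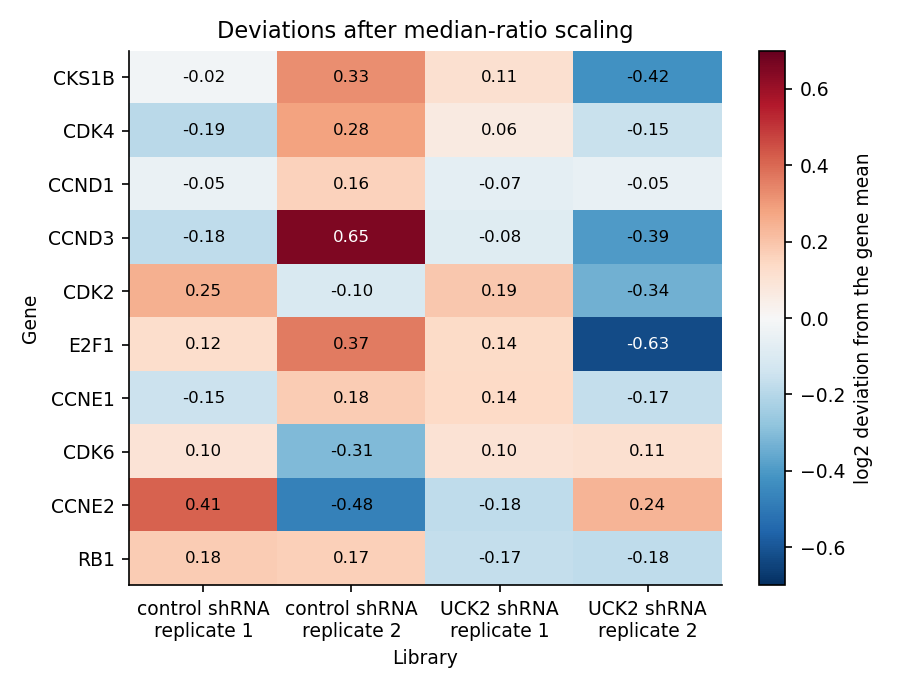
Log2 deviation of each of the 10 genes (rows) from its mean over the 4 libraries (columns) after median-ratio scaling, with the value in each cell. E2F1 (-0.63), CKS1B (-0.42), CCND3 (-0.39) and CDK2 (-0.34) are lowest in UCK2 shRNA replicate 2, whereas CCNE2 (-0.48) and CDK6 (-0.31) are lowest in control replicate 2.

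Ratios between paired genes within a library do not depend on how that library is scaled. Groups overlapped for all 6 ratios examined, and with 2 libraries against 2 an exact permutation test cannot give a p below 0.33. CCND1 exceeded CCND3 by 1.65 and 1.07 times in the controls and by 1.52 and 1.92 times in the UCK2 shRNA pair. CDK4 exceeded CDK6 by 35.4 and 67.2 times in the controls and by 42.1 and 35.8 times in the others. CKS1B exceeded CDK2 by 10.3 and 16.9 times in the controls, and by 11.8 times in both of the others. For CCNE1 over CCNE2 the ratios were 2.40 and 6.54 against 4.84 and 2.73, so the controls spanned the others. E2F1 over RB1 gave 31.8 and 38.1 against 51.1 and 30.1, and CDK4 over CDK2 gave 6.08 and 10.8 against 7.56 and 9.45.

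**Figure D4:**
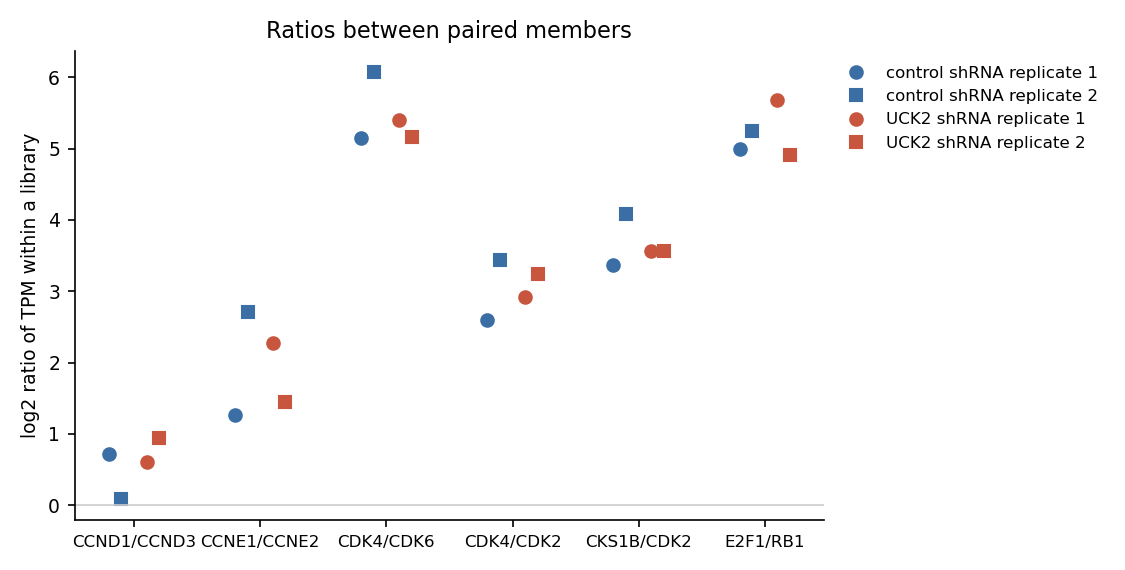
Log2 ratio of TPM between paired genes within each library, with 1 point per library. In each of the 6 pairs the points of the groups overlap, and the controls lie widest apart for CCNE1 over CCNE2 (1.26 and 2.71).

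Other genes of the pathway were read from a list of 57 symbols by role, of which 55 were on 56 rows and 54 rows were tested. With limma none of the 54 passed in either direction, as deposited or after scaling. At an unadjusted p under 0.05, 11 of 54 were lower and 0 higher as deposited, against 14% and 1.38% of all genes, and after scaling 1 was lower and 0 higher, against 1.42% and 3.97%. Log2 differences were below 0 for 49 of 54 as deposited, against 74.7% of all genes, and for 39 of 54 after scaling, against 50.8%. Rescaling without the 50 most abundant genes gave 26 of 54, against 35.6%. Of the CDK inhibitors, 6 of 7 lay below 0 after scaling. CDKN2A, whose products include p16, which blocks CDK4 and CDK6, measured 107 and 142 TPM in the control pair, against 85.9 and 113 TPM in the UCK2 shRNA pair, far above RB1 in each library. These values are for the whole gene and do not separate its products. The log2 difference of CDKN2A was -0.32 as deposited and -0.08 after scaling, and it turned under other scalings, to 0.088 under quantile normalization and 0.028 without the 50 most abundant genes. CDKN1A, the gene of p21, and CDKN1C, the gene of p57, had log2 differences of -0.38 and -0.67 (limma adjusted p = 0.362 and 0.329), or -0.14 and -0.47 after scaling.

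With all 4 libraries, the E2F target list had the lowest median of the 6 lists by role, as deposited (-0.54) and after scaling. Of its 13 genes tested, 13 lay below 0 as deposited and 12 after scaling, with 9 of 13 below 0 when rescaled without the 50 most abundant genes, against 35.6% of all genes. The scaled median was -0.30, against -0.01 over all genes. UCK2 shRNA replicate 2 was the lowest scaled library for 11 of 13, against 30.8% of all genes, and without it the scaled median was -0.08 and 9 of 13 lay below 0. The list then no longer ranked lowest, since the upstream inducers had medians of -0.40 as deposited and -0.15 after scaling, against -0.31 and -0.08 for the E2F targets. CDT1, a replication licensing factor, measured 19.6 and 19.1 TPM in the control pair, against 12.4 and 8.53 TPM in the UCK2 shRNA pair, with the groups apart before and after scaling. The log2 difference of CDT1 was -0.84 ± 0.24 (SE, limma adjusted p = 0.294; scaled -0.62, adjusted p = 0.880). PCNA, the sliding clamp of replication, and MCM7, of the replicative helicase, had scaled log2 differences of -0.34 and -0.30 (limma adjusted p = 0.955 each). MYBL2, an E2F-driven transcription factor on the list of pocket proteins and E2F partners, measured 96.4 and 108 TPM in the control pair, against 81.4 and 45.4 TPM in the UCK2 shRNA pair, and like E2F1 it was lowest in UCK2 shRNA replicate 2. The log2 difference of MYBL2 was -0.74 as deposited and -0.50 after scaling (limma adjusted p = 0.294 and 0.955). Its scaled groups overlapped, with UCK2 shRNA replicate 1 (88.6 TPM) between the controls (81.3 and 108 TPM). E2F4, a mainly repressive E2F on the same list as MYBL2, had -0.38 as deposited and -0.15 scaled.

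Promoter sequences of E2F1 and of the E2F targets named above are shown as a description, and whether motifs go with levels was not tested. RefSeq promoters (GRCh38.p14, 250 bases before to 50 after a start) were searched on both strands for TTTCCCGC, TTTGGCGC, TTTCGCGC and TTTGCCGC, spellings of the E2F motif that can overlap one another in opposite strands. Promoters of 7 of the 10 genes were in the table, without CDK2, CCND1 and CCNE2, and of these only that of E2F1 held a motif. The RB1 entry starts inside the gene. The CDT1 and MCM7 windows below also lie wholly inside their genes as deposited (chromosome 16 from 88803213 to 88809258 and chromosome 7 from 100092728 to 100101940). On the E2F target list 9 of 12 genes held one, against 3.99% of 27305 genes and 3.31% of 35116 promoters, and the list consists of textbook E2F targets. GMNN and POLA1, named outside the naming rule, are among these 9, and after scaling were lowest in control replicate 2 (23.3 and 2.53 TPM). UCK2 shRNA replicate 2 was the lowest scaled library for 11 of the 13 genes tested on this list. The windows of 30 bases below read 5′ to 3′ on the strand of the gene, with motifs in capitals. E2F1 has TTTGCCGC on the opposite strand at -33 and TTTGGCGC at -20 from its start (chr20:33686393-33686422, minus strand). The other windows are at chr16:88803743-88803772 (CDT1, plus strand), chr20:5126663-5126692 (PCNA, minus strand) and chr7:100101566-100101595 (MCM7, minus strand, the first of 2 matches). A match is a description of these letters and not evidence of binding.
E2F1: tttcGCGGCAAAaaggaTTTGGCGCgtaaa
CDT1: ccagggcgcccGCGGGAAAtttggcgggaa
PCNA: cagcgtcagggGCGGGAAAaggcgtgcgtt
MCM7: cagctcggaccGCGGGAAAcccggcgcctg

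Upstream of the D-type cyclins, 3 of 4 inducers tested lay below 0 after scaling, against 50.8% of all genes. MYC, which drives growth and CDK4 transcription, measured 119 and 122 TPM in the control pair, against 90.0 and 86.9 TPM in the UCK2 shRNA pair (limma log2 difference -0.44, adjusted p = 0.294; scaled -0.20, adjusted p = 0.955). JUN, an AP-1 subunit, had -0.55 and -0.32 after scaling, and CTNNB1, the gene of beta-catenin, had -0.43 and -0.19. The remaining cyclins, kinases and CDK activators had the only median above 0 of the 6 lists after median-ratio scaling, at 0.16. Of these genes 4 of 7 lay above 0, against 6912 of all 14038, and as deposited the median was -0.066. Rescaled without the 50 most abundant genes, the median of this list was 0.27, against 0.090 over all genes. The list of CDK subunit and ubiquitin ligase genes (0.067) and the pocket protein list (0.046) then lay above 0 too. Without control replicate 2 the scaled median of the remaining cyclins, kinases and CDK activators was -0.059, with 2 of 7 above 0. Without control replicate 1 it was 0.39, and the pocket protein list then lay above 0 as well (0.098). Among them, CDK1, the mitotic kinase, had a log2 difference of 0.04 as deposited and 0.28 after scaling, but -0.41 and -0.046 without control replicate 2, and CCNA2, the S phase cyclin, had -0.50 and -0.26. SKP1, the adaptor of the ubiquitin ligase that CKS1B serves, had -0.11 as deposited and 0.13 after scaling (limma adjusted p = 0.766 and 0.965).

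**Figure D5:**
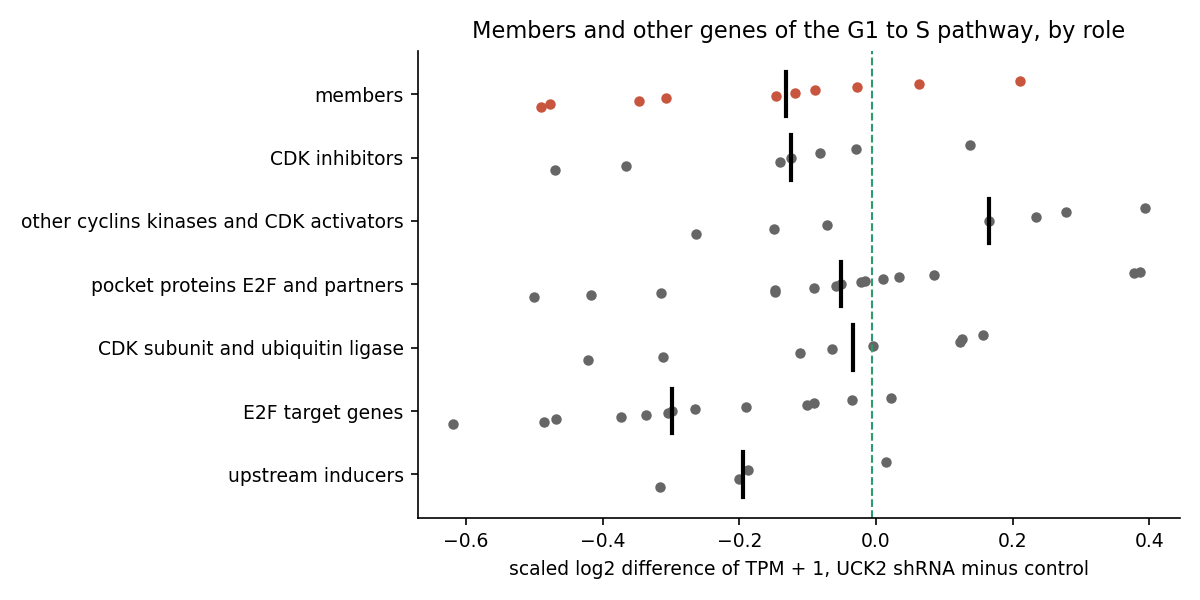
Scaled log2 difference of TPM + 1 (UCK2 shRNA minus control) of each tested gene of the pathway, with 1 row of points per role, a bar at each median and a dashed line at the median of all genes (-0.01). The E2F targets have a median of -0.30 and the 10 members -0.13, and the other cyclins, kinases and activators have 0.16, which is -0.059 without control replicate 2.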

How the data were processed

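The deposited table gives TPM per gene, as calculated by the authors, with 1 column per library. Tools listed without a role in the submitters' processing notes are HTSeq, edgeR, DESeq and TopHat2 (version 2.0.14), on build hg38, and the sources used here do not give the calculation of TPM, the annotation or the strand setting. Sequencing depth cannot be read from TPM and is unknown, hence no counting intervals. Libraries were grouped by title. Values of genes averaging at least 1 TPM were compared by limma (version 3.58.1, R 4.3.3) as log2(TPM + 1) (eBayes with trend, two-sided, threshold 0.05). The fit was tested on simulated data with independent noise and no shift of a whole library, so that test does not cover such shifts. Median-ratio factors were 1.19 and 1.00 in the control pair, against 0.918 and 0.928 in the UCK2 shRNA pair. The members and lists were chosen with earlier results of these data known. Genes named beyond the members were, in each list by role, the 2 with the highest mean TPM and the 1 with the smallest p. Alternatives were 3 other scalings, another pseudocount and variance model, 2 other filters, a replicate block, and each library left out, also with scaling. Of the 10 member rows, 8 have the coordinates of GENCODE release 29, and 7 overlap another gene on the opposite strand. Markers of blood summed to at most 0.682 TPM in a library. Of 4 fibroblast or endothelial markers 1, PECAM1, exceeded 1 TPM in every library (20.4 to 24.5 TPM). Figures were drawn with matplotlib 3.10.9.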

Additional observations from a re-analysis of the deposited data

How the results depend on the processing

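With limma, the count of all genes called was 0 as deposited, with 194 higher and 1962 lower at an unadjusted p under 0.05. It was 9 after median-ratio scaling, 8 with quantile normalization and 0 to 350 over the libraries left out in turn, with 350 lacking control replicate 1 and 53 lacking control replicate 2. The same replicate numbers in both groups share nothing but a number in the labels, and the deviations of same-numbered libraries correlated at -0.21 across genes. With the replicate number as a block, 39 genes were called, or 121 with scaling, and none of the members or pathway genes. Crossed pairing, chosen after seeing the data, called 727 of 14038 genes, 91 higher and 636 lower. It called 2 of 10 members and 5 of 54 pathway genes, all of them lower. The count of members called was 0 to 1 over the libraries left out, and 0 in each of these after scaling. Their median log2 difference was -0.13 after scaling (also -0.13 with the block), -0.074 with quantile normalization and -0.023 when rescaled without the 50 most abundant genes, against -0.029 and 0.090 over all genes in the last 2. With scaling and 1 library left out it was -0.28 without control replicate 1, -0.088 without control replicate 2, -0.28 without UCK2 shRNA replicate 1 and -0.072 without UCK2 shRNA replicate 2. The count of members below 0 was 6 with that rescaling, and 6 to 8 after scaling with 1 library left out. All runs that join scaling with a library left out were also chosen after seeing the data. The E2F1 over RB1 difference was 0.17, and -0.25 on TPM + 1.

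Signs turned as follows, and the cause was not tested. With median-ratio scaling, alone or with the block, CDK6 was 0.21, CCNE2 0.063 and SKP1 0.13. With quantile normalization CDK4 was 0.084, CDK6 0.12, CCND1 0.042, UCK2 0.059, CDKN2A 0.088 and SKP1 0.30. Rescaled without the 50 most abundant genes, CDK4 was 0.021, CDK6 0.31, CCNE1 0.077, CCNE2 0.15, UCK2 0.034, CDKN2A 0.028 and SKP1 0.24. Over the libraries left out, ranges were -0.32 to 0.30 for CDK6, -0.69 to 0.41 for CCNE2, -0.72 to 0.096 for UCK2, -0.41 to 0.49 for CDK1 and -0.25 to 0.020 for SKP1. With scaling and without control replicate 1, CDK2 was 0.030, CDK6 0.41, CCNE2 0.50, UCK2 0.068 and SKP1 0.14. With scaling and without control replicate 2, CDK4 was 0.15, CDK6 0.018, CCNE1 0.15, CDKN2A 0.25, CDK1 -0.046 and SKP1 0.12. With scaling and without UCK2 shRNA replicate 1, CDK6 was 0.22, CCNE2 0.27, CDKN2A 0.11 and SKP1 0.14. With scaling and without UCK2 shRNA replicate 2, CDK2 was 0.12, CDK4 0.022, CDK6 0.21, CCNE1 0.13, UCK2 0.35, CCNA2 0.027 and SKP1 0.12. Without turning as deposited, CDK2 ran from -0.68 to -0.086 over the libraries left out, CDK4 from -0.45 to -0.22, CCND3 from -1.01 to -0.42, CCNE1 from -0.40 to -0.11, CKS1B from -0.81 to -0.29 and E2F1 from -1.10 to -0.35. CCND3 was called without control replicate 1 as deposited (adjusted p = 0.0326) but not with scaling (0.118). Other pseudocounts, filters and variance models turned no sign of the genes named and called 0 genes.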
